A study of Mus musculus with 6 samples.

Results

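The genes of integrins and of the adaptors that tie integrins to actin were compared between neural crest stem cells (NCSC) and mesenchymal stem cells (MSC) of adult mouse bone marrow. The list held 38 genes, chosen by family membership: 13 integrin alpha chains, 8 beta chains and 17 focal adhesion adaptors. Probe sets annotated to exactly 1 gene were found for 36 of them, out of 18193 genes on the array, and these 36 genes had 85 probe sets. Itga11, a collagen-binding alpha chain, and Ptk2, which encodes focal adhesion kinase, had no probe set named in the annotation used here and are not analysed here. The study hybridised 3 arrays of NCSC and 3 arrays of MSC, and its title asks how similar and how different both cell types are. All cells came from the bone marrow of female mice aged 10 weeks, on a C57BL/6 x SV129 background and with the genotype wnt1/CRE-R26R-lacZ, so both groups carried the same transgenes. In such mice Wnt1 sequences drive Cre in the neural crest, and Cre switches on a lacZ reporter there. Stromal cells were passaged at least 5 times in Mesencult medium and then selected as clones. The submitters call the arrays biological replicates, but the labels name no animals or clones. The p-values therefore reflect array-to-array spread of unstated origin, and if each cell type was 1 clone, clone and cell type cannot be told apart.

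Integrins are heterodimers of 1 alpha and 1 beta chain that bind matrix proteins outside the cell and recruit adaptors inside it. The pairing sets the ligand. Chains that pair with Itgb1 bind collagens, laminins or fibronectin, whereas dimers of Itgav bind vitronectin, fibronectin or the latent form of TGF-beta. Inside the cell, talins and kindlins bind the beta tails, and vinculin, paxillin, zyxin, alpha-actinins and filamins join the tails to the actin cytoskeleton. Cultured stromal cells are known for large focal adhesions, and neural crest cells use integrins to migrate through embryonic matrix.

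The values were GCRMA intensities, a background-corrected and normalised measure of probe set brightness, here on the log2 scale. The lowest value was 2.12, and a limit of 4 was taken as background. Between 45.2% and 45.5% of the 45101 probe sets lay above that limit on each array. Arrays of NCSC correlated at 0.985 to 0.997 with each other across tested genes and arrays of MSC at 0.990 to 0.997, against 0.756 to 0.772 between cell types. NCSC 3 and MSC 2 stood apart from the others of their cell type, with 4.98% and 4.63% of genes more than 2-fold away from NCSC 1 and NCSC 2, and 2.69% and 2.62% away from MSC 1 and MSC 3. Sox10, Ngfr, Erbb3 and Foxd3 were above the limit on every NCSC array, while S100b was at 2.15 on NCSC 3. Of these 5 crest and Schwann cell markers Sox10 alone passed the limit in MSC, at 4.82 and 4.17 on MSC 2 and MSC 3. The summed linear intensity of the 5 ran from 18323 to 23196 in NCSC and from 35 to 53 in MSC. Of 7 measured stromal markers, 6 were above the limit on every NCSC array and 5 on every MSC array, while Thy1 was at 2.12 on all arrays. Nt5e averaged 8.51 in NCSC but was under the limit in MSC, at 3.76, 2.88 and 2.37. Pdgfrb, Cd44 and Eng were called higher in NCSC, and Pdgfra and Vcam1 lower. Markers of platelets (3 measured), endothelium (5) and epithelium (5) were under the limit on every array. In such bulk samples, fewer cells of a type and less RNA per cell cannot be told apart.

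Of the 36 genes, 29 were above the limit on at least 3 arrays and were tested. With limma and Benjamini-Hochberg adjustment over 10501 genes, 25 of the 29 were called at an adjusted p under 0.05, or 86.2%, where 64.1% of all tested genes were called. The calls were 16 higher and 9 lower in NCSC, while 35.0% of all tested genes were called higher and 29.1% lower. A difference of at least 2-fold was called for 14 of the 29, against 29.0% of all tested genes. The median difference of the 29, NCSC minus MSC on the log2 scale, was 0.34, against 0.06 for all tested genes, and their median size was 0.94, against 0.55. Itgb3, Itga9 and Flnc passed the filter through 1 cell type alone, so they had to differ, and no p-value is given for them. At the level of single probe sets 62 of the 85 passed the filter and 52 of these were called, where 60.1% of all kept probe sets were called.

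**Figure D1:**
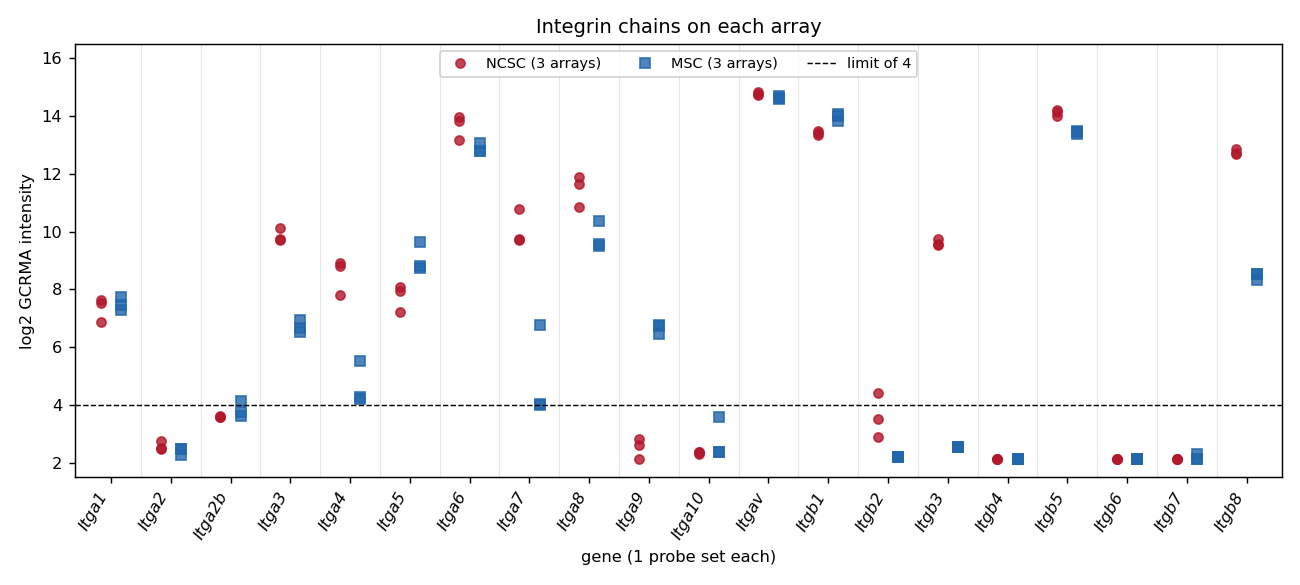
Log2 GCRMA intensity of the 20 measured integrin chains on every array, with NCSC as red circles left of MSC as blue squares and the limit of 4 dashed. Each gene is shown by 1 probe set. Itgb3 and Itgb8 lie well apart in the cell types, and Itga2, Itga2b, Itga10, Itgb2, Itgb4, Itgb6 and Itgb7 lie near or under the limit.

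Of the 8 beta chains 4 were tested, with 3 higher in NCSC, 1 lower and a median difference of 2.49. Of all tested genes 64.1% were called, with a median difference of 0.06. Among the 3 higher chains Itgb3 had to differ, since it passed the filter through NCSC alone. Itgb3, which with Itgav forms the vitronectin receptor of adherent cells, had log2 values of 9.74, 9.53 and 9.58 on the NCSC arrays, against 2.54 on each MSC array. It was thus far above the limit in NCSC and below it in MSC. With values under 4 set to 4, this is a bound of at least 49.0-fold higher. Its other kept probe set pointed the same way, at 4.94, 5.88 and 5.50 in NCSC and 2.57, 2.28 and 2.57 in MSC, and was at least 2.71-fold higher. Itgb3 also pairs with Itga2b on platelets. Itga2b was under the limit on every NCSC array, at 3.58, 3.58 and 3.61, against 4.13, 3.74 and 3.63 in MSC, and the measured platelet markers Pf4, Gp9 and Gp5 summed to 13 on every array of either cell type.

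Itgb8, whose dimer with Itgav binds latent TGF-beta and helps to activate it, was bright in both cell types. Its values were 12.88, 12.70 and 12.74 in NCSC, against 8.53, 8.55 and 8.31 in MSC. The groups did not overlap, and the difference was 4.31 ± 0.10 (SE), or 19.8-fold (adjusted p = 5.1e-07 in limma). Itgb5, another partner of Itgav, was higher in NCSC by a smaller step, at 14.21, 14.13 and 14.01 against 13.45, 13.48 and 13.39 in MSC. It rose by 0.67 ± 0.085, and all 4 of its kept probe sets were called higher, by 0.67 to 0.81. The partner itself, Itgav, was not called. It had 14.85, 14.78 and 14.74 in NCSC and 14.63, 14.70 and 14.60 in MSC, 0.15 apart (95% confidence interval -0.04 to 0.33, adjusted p = 0.135 in limma). Itgav was called higher with a trended, robust variance model, with array weights, and without MSC 2 and NCSC 3 together (adjusted p = 0.0452, 0.0173 and 0.0435 in limma).

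Itgb1, the common partner of most matrix-binding alpha chains, was lower in NCSC. It had 13.50, 13.35 and 13.41 in NCSC, against 13.84, 14.08 and 14.00 in MSC. The groups did not overlap, although the step was small, at -0.55 ± 0.096 (SE), or 1.47-fold lower (adjusted p = 0.00292 in limma). Of its 5 kept probe sets 4 were called lower, by 0.32 to 0.55 on the log2 scale, and the fifth differed by -0.16 ± 0.13 and was not called. Its means lay close to the limit, at 4.94 in NCSC and 5.10 in MSC.

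The remaining beta chains mark other cell types. Itgb4, which joins Itga6 in epithelial hemidesmosomes, and Itgb6, an epithelial partner of Itgav, were at 2.12 on all arrays. Itgb7, a lymphocyte chain, did not exceed 2.31. Itgb2, the chain shared by leukocyte integrins, had 3.51, 2.88 and 4.40 in NCSC, against 2.18 on each MSC array, and was not tested because 1 array passed the limit. Of 9 leukocyte and macrophage markers, 3 were above the limit on every NCSC array and 2 on every MSC array, and their summed linear intensity was 821 to 947 in NCSC and 177 to 201 in MSC. The defining leukocyte marker Ptprc and the macrophage marker Aif1 were at 2.12 on all arrays, and the alpha partners of Itgb2, Itgal, Itgam and Itgax, were too. The other markers of the list were split. Lyz2, with means of 8.33 in NCSC and 6.36 in MSC, and Fcer1g, with 6.23 and 5.44, were called higher in NCSC. Cd68 averaged 8.80 in NCSC and 2.77 in MSC, and passed the filter through NCSC alone, so it had to differ. Cd14 went the other way, at 2.19, 2.16 and 2.19 in NCSC against 4.63, 3.96 and 5.15 in MSC, and was not tested. Csf1r was not called (adjusted p = 0.188 in limma), and Adgre1 and Tyrobp were under the limit on every array. The part of these markers in the Itgb2 values was not tested.

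Of the 12 alpha chains with a probe set 9 were tested, with 5 higher in NCSC, 2 lower and 2 not called, and a median difference of 0.76. The share called was 77.8%, against 64.1% of all tested genes. Among the called chains Itga9 had to differ, since it passed the filter through MSC alone. The laminin-binding chains Itga3, Itga6 and Itga7 were all higher. Itga3 had 9.75, 9.70 and 10.12 in NCSC, against 6.67, 6.94 and 6.52 in MSC, a rise of 3.15 ± 0.16 (SE) or 8.85-fold (adjusted p = 1.72e-05 in limma). Its second kept probe set passed the filter through NCSC alone, with means of 4.87 in NCSC and 2.16 in MSC. It was at least 1.82-fold higher. Itga7, best known as the laminin receptor of muscle, had 9.71, 9.73 and 10.79 in NCSC, against 4.0, 6.76 and 4.02 in MSC. All NCSC arrays were above all MSC arrays, but MSC 2 stood well above MSC 1 and MSC 3, which lay at the limit. The fitted difference was 5.15 ± 0.80, or 35.6-fold (adjusted p = 0.00179 in limma), and 67.1-fold without MSC 2, against MSC values at the limit. Itga6 was bright in both, at 13.97, 13.84 and 13.18 in NCSC and 12.80, 13.08 and 12.81 in MSC. It rose by 0.76 ± 0.22 (adjusted p = 0.0235 in limma), a call lost without NCSC 1, NCSC 2, MSC 1 or MSC 3 (adjusted p between 0.0722 and 0.0794 in limma) and without the filter on low values (0.0937). The other kept probe set of Itga6 rose by 0.75 ± 0.13 (adjusted p = 0.00342 in the probe set fit of limma).

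The chains that bind fibronectin and cell surface or matricellular ligands moved in both directions. Itga4, which with Itgb1 binds fibronectin and Vcam1, had 8.90, 8.80 and 7.81 in NCSC, against 4.29, 5.53 and 4.22 in MSC. The MSC values other than that of MSC 2 were near the limit, and the groups were far apart. The rise was 3.82 ± 0.45 (SE), or 14.2-fold (adjusted p = 0.000538 in limma), and 24.2-fold without MSC 2 and NCSC 3. A second kept probe set of Itga4 rose by 3.80 ± 0.47.

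Itga8, the receptor chain for nephronectin, had 11.88, 11.65 and 10.85 in NCSC, against 9.57, 10.38 and 9.50 in MSC. The highest MSC array was MSC 2 and the lowest NCSC array was NCSC 3, so the gap between groups was narrowest between the arrays that stood apart. The rise was 1.64 ± 0.35 (SE), or 3.13-fold (adjusted p = 0.00663 in limma), and 4.7-fold without both arrays. A second Itga8 probe set that did not pass the filter had 5.24, 4.82 and 2.20 in NCSC and 2.14, 2.15 and 2.20 in MSC, so NCSC 3 was at the MSC level there.

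Itga9 and Itga5 were lower in NCSC. Itga9, which with Itgb1 binds tenascin C, had 2.82, 2.12 and 2.62 in NCSC, against 6.76, 6.72 and 6.47 in MSC. All NCSC arrays were below the limit and all MSC arrays above it, at least 6.28-fold lower in NCSC. Its second kept probe set averaged 2.26 in NCSC and 4.96 in MSC, at least 1.95-fold lower. Itga5, the alpha chain of the classical fibronectin receptor, had 8.08, 7.95 and 7.21 in NCSC, against 8.74, 9.64 and 8.82 in MSC. It fell by 1.32 ± 0.32 on the log2 scale, or 2.49-fold (adjusted p = 0.0125 in limma), and the call was lost without the filter on low values (adjusted p = 0.0646 in limma). The 3 kept probe sets of Itga5 were all called lower but disagreed in size, at -1.32, -1.17 and -0.26.

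The collagen-binding alpha chains differed little or were near background. Itga1 had 7.54, 7.64 and 6.86 in NCSC and 7.45, 7.74 and 7.29 in MSC, with overlapping groups and a difference of -0.15 (95% confidence interval -0.72 to 0.42, adjusted p = 0.605 in limma). The sign of that difference turned on NCSC 3, since without it the value was 0.10. Itga2 and Itga10 were under the limit on every array and were not tested.

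**Figure D2:**
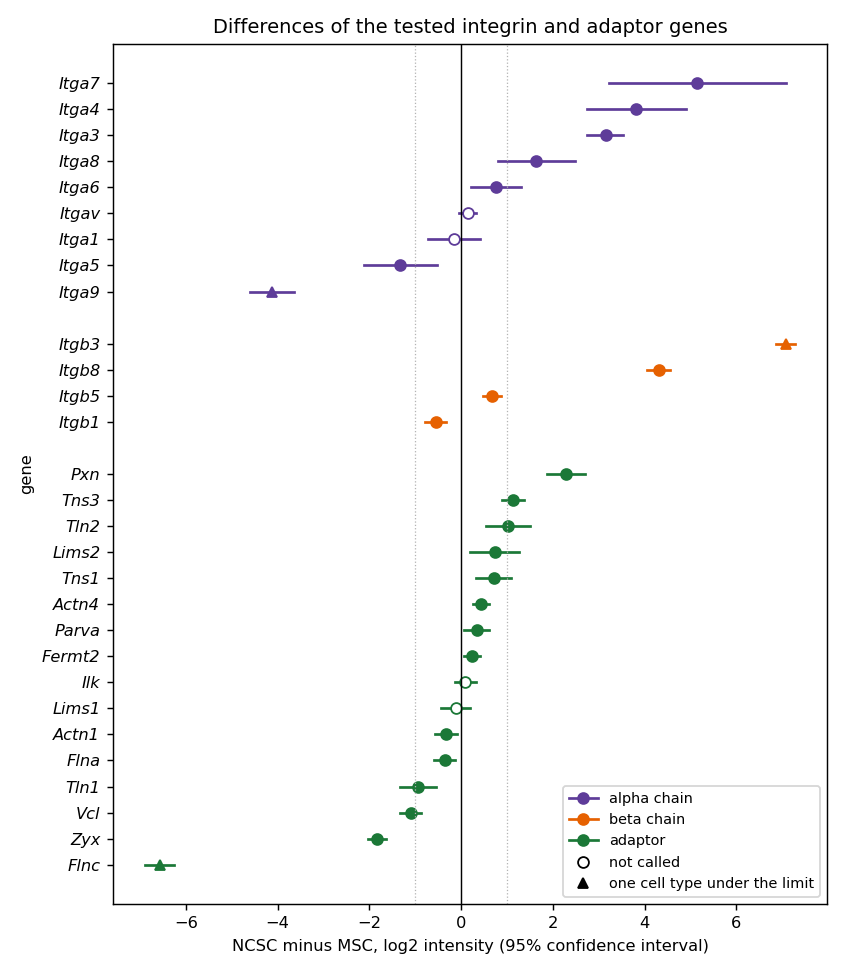
Difference between NCSC and MSC (log2 intensity, with 95% confidence interval) for the 29 tested genes, grouped as alpha chains, beta chains and adaptors. Filled symbols were called, open ones were not, and triangles mark genes with 1 cell type under the limit, where the fitted difference rests on background values. Itgb3 has the highest and Flnc the lowest fitted difference of the 29.

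All 16 adaptors that had a probe set passed the filter. By their brightest probe sets 8 of them were higher in NCSC, 6 were lower and 2 were not called, with a median difference of 0.16. The share called was 87.5%, against 64.1% of all tested genes. Flnc, counted among the 6 lower, had to differ, since it passed the filter through MSC alone. Parva is counted among the 8, although its kept probe sets gave opposite calls. Paxillin (Pxn), the scaffold that recruits kinases to young adhesions, rose most. Its values were 13.97, 13.66 and 13.31 in NCSC, against 11.34, 11.41 and 11.30 in MSC. The rise was 2.29 ± 0.17 (SE), or 4.9-fold (adjusted p = 7.87e-05 in limma), with no overlap. Its other kept probe set rose by 2.61 ± 0.13.

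Filamin C (Flnc), an actin crosslinker known from striated muscle, changed most in the other direction. It had 3.50, 3.29 and 3.50 in NCSC, against 9.92, 10.22 and 9.83 in MSC. NCSC were below the limit on every array, and Flnc was at least 63.6-fold lower. The second kept probe set gave at least 106-fold. Filamin A (Flna), the widely expressed crosslinker, was bright in both, with means of 13.83 in NCSC and 14.19 in MSC, and fell by 0.36 ± 0.094 on the log2 scale (adjusted p = 0.0154 in limma). That call was lost without MSC 1 (adjusted p = 0.0543) or MSC 3 (0.0612 in limma).

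Zyxin (Zyx) and vinculin (Vcl), proteins of adhesions under tension, were both lower in NCSC. Zyx had 9.90, 9.84 and 9.78 in NCSC, against 11.64, 11.64 and 11.73 in MSC, which is 3.55-fold lower (difference -1.83 ± 0.078, SE, adjusted p = 7.43e-06 in limma). Vcl had 12.86, 12.76 and 12.92 in NCSC, against 13.92, 14.07 and 13.86 in MSC, which is 2.14-fold lower (difference -1.10 ± 0.092, adjusted p = 0.000129 in limma). In neither gene did the groups overlap, and the second kept probe set of each was called lower too, by 1.52 for Zyx and 1.21 for Vcl on the log2 scale.

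The talin genes moved in opposite directions. Talin activates integrins by binding their beta tails. Tln1 had 9.77, 9.47 and 10.09 in NCSC, against 10.65, 10.79 and 10.71 in MSC, and fell by 0.94 ± 0.16 (SE) on the log2 scale (adjusted p = 0.00291 in limma). Tln2 had 8.82, 8.75 and 9.40 in NCSC, against 7.91, 7.82 and 8.15 in MSC, and rose by 1.03 ± 0.20, or 2.04-fold (adjusted p = 0.00437 in limma). The groups did not overlap for either gene. A second kept probe set of Tln2 rose by 2.00 ± 0.34. Of 3 kept probe sets of Tln1, 2 were called lower and the third, with a mean of 3.35 in NCSC and 4.67 in MSC, was not (adjusted p = 0.0583 in the probe set fit of limma).

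Tensins bind beta tails in the long, mature fibrillar adhesions. Tns3 had 13.63, 13.49 and 13.51 in NCSC, against 12.33, 12.56 and 12.33 in MSC, and rose by 1.14 ± 0.099 (SE), or 2.2-fold (adjusted p = 0.000154 in limma). A second, dim probe set of Tns3, with means of 5.48 in NCSC and 5.38 in MSC, was not called. Tns1 averaged 9.70 ± 0.30 in NCSC and 8.99 ± 0.070 in MSC (SD, n = 3 each) and was called higher in all 3 kept probe sets, by 0.71 to 1.16. The alpha-actinins, which bundle actin at adhesions, split. Actn4 rose by 0.43 ± 0.071, with means of 13.58 in NCSC and 13.15 in MSC. Actn1 fell by 0.33 ± 0.096 in its brightest probe set, with means of 14.21 in NCSC and 14.53 in MSC (adjusted p = 0.0248 in limma). The Actn1 call was lost without NCSC 2, MSC 1 or MSC 2 (adjusted p = 0.077, 0.0777 and 0.0574 in limma) and without MSC 2 and NCSC 3 together (0.0508), although its other 2 kept probe sets were also called lower.

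Next came the genes of the complex of integrin-linked kinase, parvin and PINCH, which couples beta tails to actin, and kindlin Fermt2, a talin partner. Their calls were absent, differed between probe sets or were lost when single arrays were left out. Ilk had 11.41, 11.62 and 11.55 in NCSC and 11.47, 11.34 and 11.49 in MSC, and was not called (difference 0.09, 95% confidence interval -0.13 to 0.32). Parva gave opposite calls in its 2 kept probe sets. The brighter one had 12.08, 11.87 and 11.99 in NCSC, against 11.54, 11.82 and 11.54 in MSC, and was higher by 0.34 ± 0.11 (SE), while the other had 9.97, 9.82 and 9.54 in NCSC, against 10.31, 10.30 and 10.27 in MSC, and was lower by 0.52 ± 0.13 on the log2 scale. No direction can therefore be given for Parva as a gene, and why its probe sets differ was not tested. The PINCH gene Lims1 was not called in its brightest probe set, at 13.55, 13.57 and 13.17 in NCSC and 13.52, 13.51 and 13.63 in MSC, but 3 of its 5 kept probe sets were called lower, by 0.32 to 1.54, and the mean of all 5 fell by 0.70 on the log2 scale (adjusted p = 0.00212 in limma). The related Lims2 rose by 0.74 ± 0.22, with means of 9.39 in NCSC and 8.65 in MSC (adjusted p = 0.0261 in limma). Fermt2 had 12.48, 12.38 and 12.50 in NCSC, against 12.22, 12.20 and 12.23 in MSC, a rise of 0.24 ± 0.075 (adjusted p = 0.0312 in limma) that its other kept probe set, at -0.16 ± 0.084, did not share.

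The calls of Lims2, Fermt2 and the brighter Parva probe set were lost when any of several single arrays was left out, although each difference kept its sign. Without NCSC 1, MSC 1 or MSC 3 none of these 3 was called, with adjusted p between 0.0832 and 0.12 in limma. Lims2 was also not called without NCSC 2 (0.0834), Fermt2 without MSC 2 (0.0539) and Parva without NCSC 3 (0.0656 in limma). Without the filter on low values Parva and Lims2 were not called (adjusted p = 0.0835 and 0.101 in limma), and Fermt2 was not called with the mean of its kept probe sets (0.694).

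**Figure D3:**
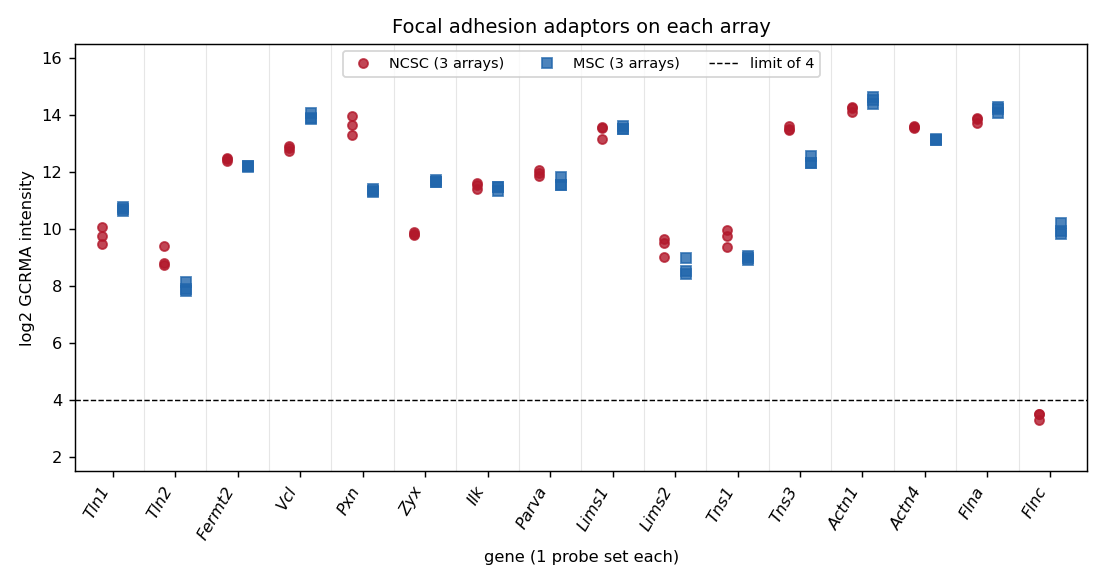
Log2 GCRMA intensity of the 16 measured focal adhesion adaptors on every array, with NCSC as red circles left of MSC as blue squares and the limit of 4 dashed. Pxn stands higher in NCSC, Zyx and Vcl stand lower, and the NCSC values of Flnc lie under the limit.

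**Figure D4:**
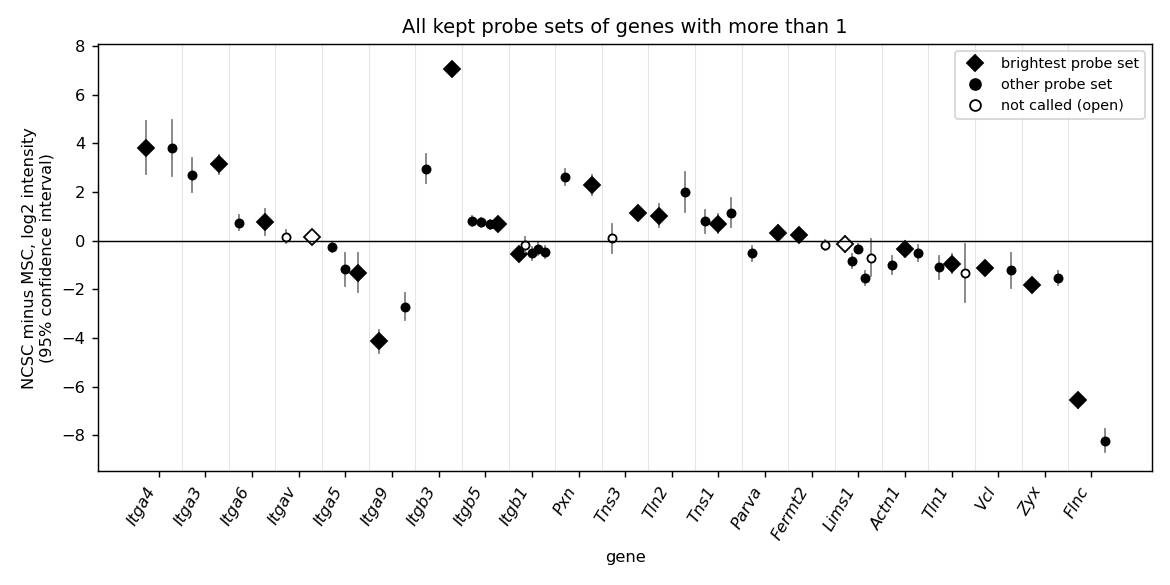
Difference between NCSC and MSC (log2 intensity, with 95% confidence interval) of every kept probe set for the 21 genes with more than 1. Diamonds mark the brightest probe set, and open symbols were not called. In 15 genes all kept probe sets had the same call, and the points of Parva lie on both sides of 0.

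Several probe sets of a gene were a second look at most of these results. Of the 29 tested genes 21 had more than 1 kept probe set. In 15 of these all kept probe sets shared a call, which was the same called direction in 14 and not called in 1, Itgav. Among the 14, every kept probe set of Itgb3, Itga9 and Flnc, and the second of Itga3, passed the filter through 1 cell type alone. Those probe sets had to differ, so their shared calls are no second look. In 5 genes, Fermt2, Itgb1, Lims1, Tln1 and Tns3, some were called and some not, and Parva was called both ways. The uncalled probe set of Tln1 passed the filter through MSC alone, so it is no second look either. Probe sets of a gene share the RNA and the arrays, so they are no added replicates.

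Vinculin is known as a target of serum response factor, which binds the CArG box. The promoters of the members, 250 bases before to 50 bases after a start site, were searched for this box on both strands because it is a known element of cytoskeletal genes. The table of RefSeq promoters used here (GRCm38.p6) matched 28 of the 38 genes with 34 promoters, and 3 of the 34 (8.82%) held a CArG box, against 1.63% of all 32851 promoters. These were promoters of Vcl, Fermt2 and the unexpressed Itgb6. Vcl was a known target before the search, and the motif was chosen after the values were seen. These shares are therefore no test of enrichment. The promoters of the 2 tested genes are shown with the box in capitals, 5′ to 3′ on the strand of the gene, Vcl at chr14:20929148-20929447 on the plus strand and Fermt2 at chr14:45530016-45530315 on the minus strand.
Vcl: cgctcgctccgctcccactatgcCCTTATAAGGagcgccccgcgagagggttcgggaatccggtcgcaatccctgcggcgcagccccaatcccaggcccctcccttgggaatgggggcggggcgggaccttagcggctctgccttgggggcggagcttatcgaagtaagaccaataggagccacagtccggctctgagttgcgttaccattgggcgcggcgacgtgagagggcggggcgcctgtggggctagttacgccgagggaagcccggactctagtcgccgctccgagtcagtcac
Fermt2: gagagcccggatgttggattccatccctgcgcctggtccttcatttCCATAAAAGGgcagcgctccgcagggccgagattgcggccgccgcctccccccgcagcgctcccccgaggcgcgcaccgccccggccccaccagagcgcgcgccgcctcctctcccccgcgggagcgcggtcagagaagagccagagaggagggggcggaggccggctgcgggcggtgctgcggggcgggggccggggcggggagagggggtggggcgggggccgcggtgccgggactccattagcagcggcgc
The first base of the box lay at position -227.0 from the start site in Vcl, which was lower in NCSC, and at -204.0 in Fermt2, whose probe sets disagreed. Promoters of Zyx, Flnc, Flna, Actn1 and Tln1, the other adaptors called lower, did not hold these letters in that window. The motif ACAAAG, a core sequence bound by SOX factors, was in 2 of the 34 promoters (5.88%), 1 each of Itga3 and Itgb1, against 18.7% of all promoters. Itga6, Itga7, Itgb2, Itgb3, Itgb4, Tln2, Pxn, Parva, Lims2 and Ptk2 were not searched. A match is a description of the letters and shows no binding.

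Other genes of the pathway were taken from 3 lists. Of 20 other integrin chains and membrane partners 13 were tested, with 7 higher in NCSC, 3 lower and 3 not called, and a median difference of 0.46. The share called was 76.9%, against 64.1% of all tested genes. The tetraspanin Cd151, which associates with laminin-binding integrins, rose by 1.34 ± 0.078 (SE), with means of 15.03 in NCSC and 13.69 in MSC. The integrin-associated protein Cd47 rose by 0.80 ± 0.077. Caveolin Cav1, the coat protein of caveolae, fell by 2.23 ± 0.10 on the log2 scale, with means of 11.99 in NCSC and 14.22 in MSC, and the endocytic receptor Lrp1 fell by 1.47 ± 0.24.

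Of 50 other adaptors, kinases and regulators of focal adhesions 39 were tested, with 12 higher in NCSC, 14 lower and 13 not called, and a median difference of 0.05. The share called, 66.7%, was near the 64.1% of all tested genes. The actin-binding protein calponin, Cnn1, had 2.38 on each NCSC array, against 12.08, 12.47 and 12.38 in MSC, which makes it at least 318-fold lower. Cnn1, counted among the 14 lower, passed the filter through MSC alone, so it had to differ. Migfilin, Fblim1, which links filamin to adhesion sites, fell by 4.73 ± 0.083 (SE) on the log2 scale, with 6.19, 6.29 and 6.24 in NCSC against 11.05, 11.00 and 10.88 in MSC. The actin elongation factor Enah fell by 1.89 ± 0.21. Arhgap24, a filamin-binding regulator of Rac, rose by 1.85 ± 0.10.

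Of 35 integrin ligands 30 were tested, with 13 higher in NCSC, 8 lower and 9 not called, and a median difference of 0.10. The share called, 70.0%, was also near the 64.1% of all tested genes. Tenascin C (Tnc), the ligand of Itga9, averaged 2.59 in NCSC, against 12.92 in MSC, at least 485-fold lower. Nephronectin (Npnt), the ligand of Itga8, had 5.40, 4.97 and 5.35 in NCSC, against 9.75, 9.74 and 9.54 in MSC, and fell by 4.44 ± 0.14 (SE) on the log2 scale. Itga9 and Tnc were both lower in NCSC, but both passed the filter through MSC alone, so both had to differ. Itga8 was higher in NCSC, and its ligand gene Npnt was lower. The matricellular protein Ccn3 was at least 148-fold lower, and it too passed the filter through MSC alone, so it had to differ. Tnc and Ccn3 are counted among the 8 lower. The laminin chain Lama4 was at least 151-fold higher, with 11.35, 11.35 and 11.04 in NCSC against 4.02, 2.85 and 2.85 in MSC. The laminin-binding chains Itga3, Itga6 and Itga7 were higher too. Of the other laminin chains listed, Lama2, Lamb2 and Lamc1 were called higher, by 0.45, 0.75 and 1.04 on the log2 scale. Lama5 and Lamb1 were not called, at -0.04 and -0.14. The ligand genes named here beyond Tnc, Npnt, Ccn3 and Lama4 were chosen after their values were seen. Vitronectin (Vtn), a ligand of Itgav dimers, was at 2.12 on all arrays. Some other ligands of Itgav dimers were called higher in NCSC, with Tgfbi at 4.03 ± 0.44, Thbs2 at 3.96 ± 0.17, Edil3 at 2.91 ± 0.21 and Postn at 2.62 ± 0.23 (difference on the log2 scale, SE). They do not show that ligands of Itgav dimers rose as a group. Among the 8 integrin ligands called lower were Ccn1, with means of 12.89 in NCSC and 13.90 in MSC, and Ccn2, with 14.80 and 15.77. Thbs1 was not called, with means of 14.23 in NCSC and 14.57 in MSC. Vcam1, a ligand of Itga4, was lower by 4.04 ± 0.078 on the log2 scale, with means of 8.57 in NCSC and 12.61 in MSC. Fibronectin (Fn1), the ligand of Itga5, was not called, with means of 15.07 in NCSC and 15.30 in MSC (adjusted p = 0.105 in limma). Tgfb1, whose latent product is bound by Itgb8 dimers, had 6.70, 6.66 and 7.62 in NCSC, against 3.89, 4.0 and 4.17 in MSC, and rose by 2.97 ± 0.27, with the MSC values at the limit.

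**Figure D5:**
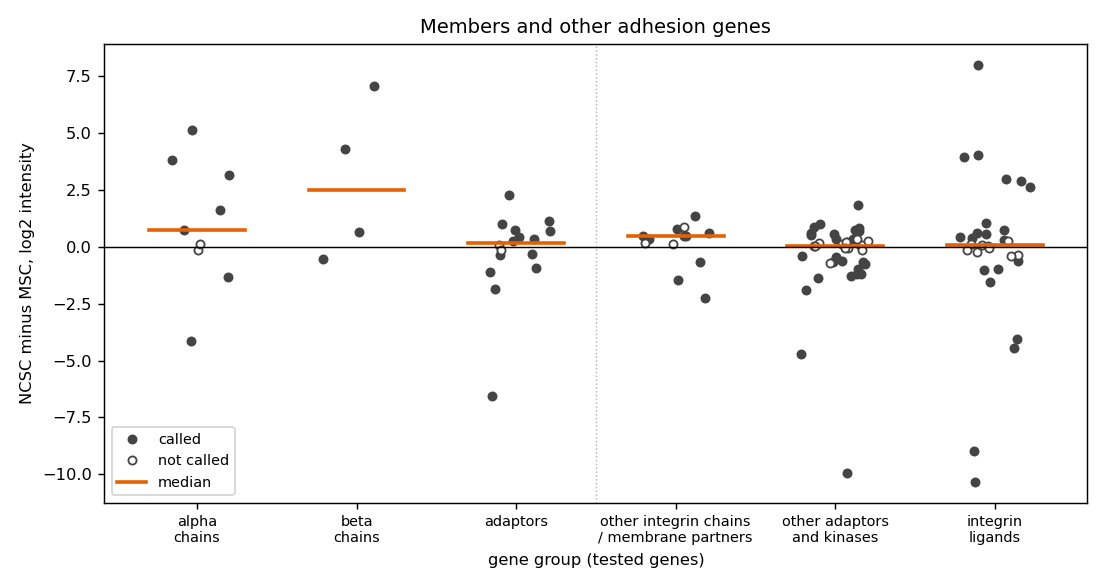
Difference between NCSC and MSC (log2 intensity) for each tested gene of the alpha chains, beta chains and adaptors, and of the 3 lists of other adhesion genes, with the median of each group as an orange bar. Filled points were called and open points were not. Medians lie between 0.05 and 2.49, and single genes of each group but the beta chains reach below -1.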

How the data were processed

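Per the submitters' processing notes, the authors made probe set intensities with GCRMA (version not given in the sources used here), and the deposited values are intensities on a linear scale, read so from their range of 4.36 to 116597. Log2 was taken first. The platform annotation named 1 gene for 34945 probe sets and several for 932, and those with 1 gene were used. A probe set was kept when its log2 value was above 4 on at least 3 of 6 arrays. A gene was represented by its kept probe set with the highest mean, which left 10501 genes. The tool was limma (version 3.58.1, under R 4.3.3). Its lmFit and eBayes functions gave NCSC minus MSC with no covariate and two-sided tests, across all genes, and again across all 18640 kept probe sets. P-values were adjusted by the Benjamini-Hochberg method over all features tested, and a call is an adjusted p under 0.05. The fit was tested on simulated data. Folds against a group averaging 4 or less are bounds, with values under 4 set to 4. The number of arrays limits the precision.

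The members and the lists were chosen with earlier results of these data known. Values on every array are given for members called with at least a 2-fold difference, for those whose kept probe sets disagree and for Itgb1, Itgav, Tln1, Vcl and Pxn whatever their result. Ptk2 was in that rule but no probe set is named for it here. Every other member is accounted for. The promoter motifs were chosen after the values were seen. From each list of other genes the 4 called genes with the largest difference are named. Alternatives were other filters, a floor at 4, the mean of probe sets, quantile normalization, other variance models, a replicate block and leaving out arrays.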

Additional observations from a re-analysis of the deposited data

How the results depend on the processing

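Of the 29 tested members 19 kept their direction and their side of the threshold under all 15 alternatives. These include Itgb3, Itga9 and Flnc, which had to differ, and Ilk, which was not called under any of them. The main fit called 25 of the 29 members, and 6731 of all 10501 tested genes. With the low-value filter dropped, 36 members were tested and 21 called, among 5827 calls in 18193 genes. The mean of probe sets gave 24 members, among 6756 calls, and array weights gave 26, among 8104. Leaving out MSC 2 and NCSC 3 together (chosen after seeing the data) gave 25, among 7773. Leaving out single arrays gave 19 to 24, among 5706 to 7184. The number of adaptors called, 14, was 9 to 13 without single arrays, with 9 without MSC 1. Parva was -0.09 with the mean of its probe sets. Itga1 was 0.15 with array weights, -0.30 to 0.10 without single arrays and 0.22 without MSC 2 and NCSC 3. Lims1 was -0.19 to 0.01 without single arrays. Among the single arrays left out, NCSC 3 gave the highest value for Itga1 and for Lims1. The cause was not tested.

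With the replicate number as a block, 22 members were called and 6257 of all tested genes, against 6731 without it. Fermt2, Parva and Actn1 were then not called (adjusted p = 0.0881, 0.0902 and 0.0689 in limma). Arrays with the same number did not deviate together (correlations of -0.0985, 0.0621 and 0.0729), so the numbers were not taken as pairs. Values under 4 are background, so differences of Itgb3, Itga9 and Flnc are given as bounds.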
